A study of Mus musculus with 4 samples.

Results

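Metallothioneins and glutathione transferases were examined in cultures enriched for mouse oligodendrocytes, with and without Zdhhc5, which encodes a palmitoyl acyltransferase. They were taken by symbol from the deposited expression table, as every row named Mt followed by a digit from 1 to 4 or Gst followed by a class letter and a digit. The rule found 12 of 6940 listed genes, which were 2 metallothioneins (Mt1 and Mt3) and 10 glutathione transferase genes (Gsta4, Gstk1, Gstm1, Gstm2, Gstm4, Gstm5, Gsto1, Gstp1, Gstz1 and the pseudogene Gstm2-ps1). Mt2, Mt4, other glutathione transferases and Zdhhc5 itself were not analysed here. Of the 12 genes, 11 were higher and 1, Gsto1, was lower in cKO cells. The table lists genes that the authors had called changed, and in the limma fit used here 46.7% of all listed genes were higher and 53.3% were lower in cKO cells.

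The measurement was bulk RNA sequencing of 4 libraries from C57BL/6 mice, 2 per genotype. The cKO cells carried Olig1cre/+;Zdhhc5fl/fl, with Cre driven by Olig1, a gene of the oligodendrocyte lineage. The control cells carried Zdhhc5fl/fl without Cre, so the presence of Cre and the loss of Zdhhc5 cannot be told apart. Cells of both genotypes came from cortex at postnatal day 5, were enriched by immunopanning on GalC and O4 antibodies, were grown for 6 days and were then differentiated for 24 h with triiodothyronine at 40 ng/mL. Nothing in the labels ties the 2 libraries of a genotype to different cultures or different animals, so p-values measure the spread between these libraries, which may be technical.

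Metallothioneins are small cysteine-rich proteins that bind zinc and copper and release them again. Mt1 occurs in most tissues and is induced by zinc through the transcription factor Mtf1, whereas Mt3 is the brain form, also called growth inhibitory factor. Glutathione transferases join glutathione to reactive compounds, and the letter after Gst gives the class (alpha, kappa, mu, omega, pi or zeta). Astrocytes are known for high levels of both families, and the pi-class protein is widely used as a marker of oligodendrocytes.

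The sequencing depth, counted over the listed genes, was 20068016 and 13672254 reads in cKO libraries and 17077509 and 16773675 reads in control libraries. All values below are normalised reads unless a sentence names another scale. The oligodendrocyte label was set against marker genes. All 12 of 12 oligodendrocyte markers were listed and lower in cKO cells, with summed levels of 98243 and 100953 in cKO libraries against 417162 and 419300 in control libraries. Of 12 astrocyte markers, 11 were listed, 9 higher and 2 lower, and their summed levels were 771559 and 764521 in cKO libraries against 511353 and 512203 in control libraries. Transcripts of both lists were thus present in the libraries of both genotypes, and the astrocyte sum was the larger in all 4 libraries. Most of it came from the astrocyte gene Gfap, which had the highest mean of all listed genes. Without Gfap the astrocyte sum stayed larger in cKO libraries and was the smaller in control libraries. In bulk RNA, fewer cells of a type and less RNA per cell cannot be told apart, and the part of cell composition in the results below was not tested.

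The metallothioneins were among the most abundant transcripts of the table and both rose in cKO cells. Mt3 had 27052 and 33259 normalised reads in cKO libraries, against 17381 and 14096 in control libraries. Both cKO libraries lay above both control libraries, but cKO 2 stood well above cKO 1, and control 2 well below control 1. The means were 30156 ± 4389 in cKO cells and 15738 ± 2323 in control cells (SD, n = 2 each), which was 1.92-fold higher (log2 fold change 0.94 with an SE of 0.07, limma adjusted p = 2.3e-11). That SE borrows the spread of other genes, and from the 4 Mt3 values alone it was 0.21. Mt1 had 27962 and 28596 normalised reads in cKO libraries, against 22180 and 18346 in control libraries. The genotypes again did not overlap, and here the control libraries were the ones that lay apart from each other. Nearly all listed genes were separated in this way, 46.7% with both cKO values above both control values and 53.3% with both below. Mt1 was 1.40-fold higher in cKO cells (log2 fold change 0.49 with an SE of 0.05, limma adjusted p = 8.36e-09), and its own 4 values gave an SE of 0.14. The Mt1 difference was small once the trends of fold change with GC content and deposited gene length were removed, at 0.05 on the log2 scale (limma adjusted p = 0.892), whereas Mt3 kept 0.39 (limma adjusted p = 7.39e-05). In the authors' deposited table the adjusted p-values were 4.44e-05 for Mt3 and 0.00168 for Mt1.

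**Figure D1:**
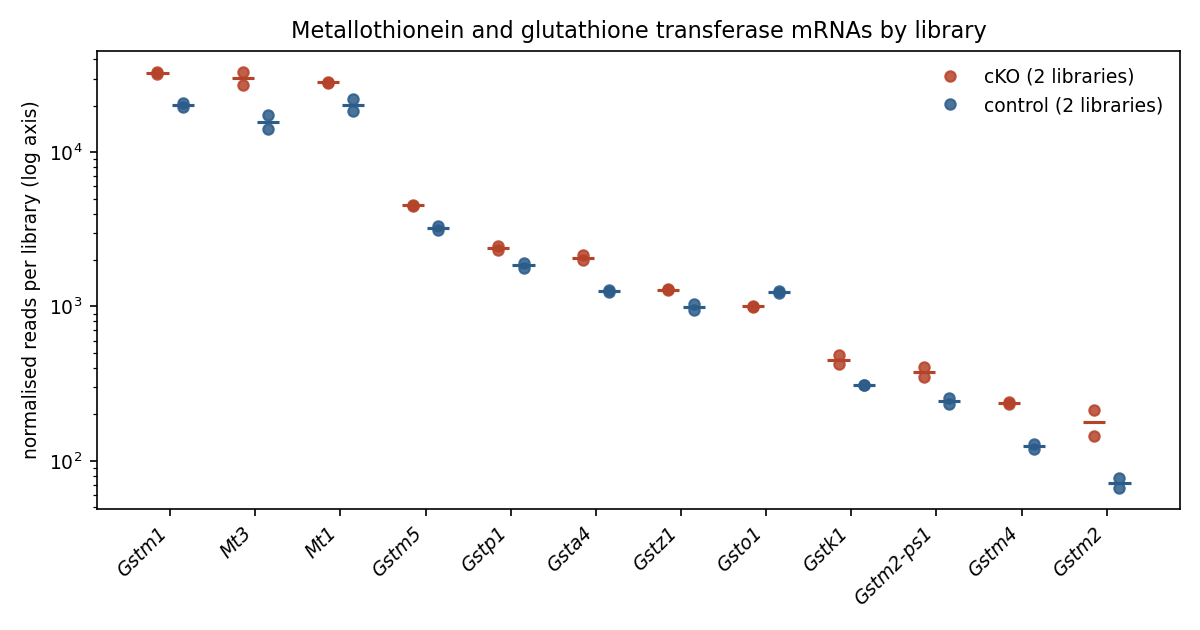
Normalised reads of each of the 12 genes in the 4 libraries, cKO libraries left of control libraries, on a log axis. Points are single libraries and bars their mean. In all 12 genes the cKO and control points do not overlap, and only Gsto1 has its cKO points below its control points. Such separation is general among listed genes. Of all 6940, 46.7% had both cKO values above both control values, and 53.3% had both below.

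Mt3 had the higher fold change of the 2 metallothioneins. Mt3 reads equalled 96.7% and 116% of Mt1 reads in cKO libraries, against 78.4% and 76.8% in control libraries, so the ratio was higher in both cKO libraries. The ratio stands outside the fit across genes, and for a single value an exact permutation test of 2 against 2 libraries cannot give a two-sided p below 0.333, so whether the 2 genes changed unequally was not tested. Replicates of one genotype differed more for Mt3 than for any other abundant gene among those listed. The listed genes had passed the authors' call on these same libraries, which favours genes with close replicates. Among the 239 listed genes with a mean of at least 10000 normalised reads, the 2 libraries of a genotype had a median log2 difference of 0.034 in cKO cells and 0.022 in control cells. Mt3 differed by 0.30 in each genotype, and 0 of the 239 genes differed by more in either genotype. Mt1 differed by 0.03 between cKO libraries, which was ordinary, and by 0.27 between control libraries, where 1 gene differed by more. For Gstm1, of like abundance, the differences were 0.04 in cKO cells and 0.08 in control cells.

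**Figure D2:**
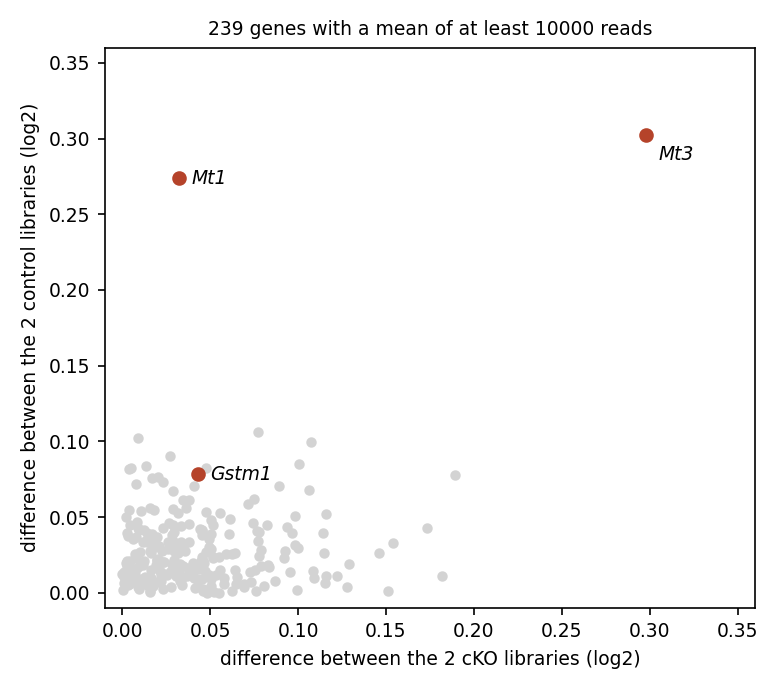
Absolute log2 difference between the 2 cKO libraries (horizontal axis) and between the 2 control libraries (vertical axis), one point per gene. Shown are the 239 listed genes with a mean of at least 10000 normalised reads, all of them called changed by the authors. Mt3 stands alone at 0.30 on both axes, Mt1 is high on the control axis only, and Gstm1 lies with the other genes.

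Mt1 and Mt3 stand on mouse chromosome 8, within a cluster of 4 metallothionein genes spanning 43.1 kb in the RefSeq annotation of GRCm38.p6. The deposited table places Mt3 at chr8:94152607-94154146 and Mt1 at chr8:94179082-94180327, both on the plus strand, and its coordinates match GENCODE release M21 for 11 of the 12 genes. Among protein-coding genes within 200 kb of the cluster, the cilium gene Bbs2 had a log2 fold change of 0.32. The nuclear pore gene Nup93 had one of 0.23. Both were below those of Mt3 and Mt1 before any trend was removed. With the GC trend removed, Bbs2 and Mt1 were level at 0.20, while Mt3 was at 0.46. With GC and length trends removed, Bbs2 was at 0.11, Mt1 at 0.05 and Mt3 at 0.39. The promoters are shown because Mtf1 acts on Mt1 through a known motif. Each runs from 250 bases before to 50 bases after a RefSeq transcription start (GRCm38.p6), Mt3 from chr8:94152357-94152656 and Mt1 from chr8:94178839-94179138, both plus strand. Capitals mark matches, on either strand, to the metal response element core TGCACNC or TGCGCNC.
Mt3: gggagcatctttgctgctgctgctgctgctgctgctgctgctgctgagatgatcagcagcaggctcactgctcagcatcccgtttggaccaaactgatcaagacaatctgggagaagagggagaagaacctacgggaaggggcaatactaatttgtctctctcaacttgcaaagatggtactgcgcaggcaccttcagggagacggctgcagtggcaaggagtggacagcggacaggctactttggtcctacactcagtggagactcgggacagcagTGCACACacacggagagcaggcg
Mt1: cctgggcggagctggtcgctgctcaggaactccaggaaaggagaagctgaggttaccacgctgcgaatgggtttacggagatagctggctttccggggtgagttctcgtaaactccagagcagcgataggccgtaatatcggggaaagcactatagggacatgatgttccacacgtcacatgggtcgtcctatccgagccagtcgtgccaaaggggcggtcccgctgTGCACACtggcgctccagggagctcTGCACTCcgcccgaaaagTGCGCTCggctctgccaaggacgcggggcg
Within these windows Mt1 held 3 matches, 23 bases before and 2 and 20 bases after the start used, and Mt3 held 1 match, 27 bases after it. The RefSeq Mt1 gene begins at position 94178883, upstream of the start used for its window. Distances and sides hold for that 1 start only, and bases past the windows were not searched. At least 1 match occurred in 25.7% of the 32817 promoters of the same length, and 3 or more in 1.97%. A match is a description of letters and not of binding.

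The mu class held the most abundant transferase and the one with the greatest fold change. All 4 mu-class genes listed from the chromosome 3 cluster rose, and their median was 0.81 on the log2 scale. Gstm1, at chr3:108012255-108017973 on the minus strand, had 33038 and 32068 normalised reads in cKO libraries, against 19625 and 20720 in control libraries. Replicates lay close together and far from the other genotype. The means of 32553 ± 686.1 in cKO cells and 20172 ± 774.1 in control cells (SD, n = 2 each) differed 1.61-fold (log2 fold change 0.69 with an SE of 0.03, limma adjusted p = 2.51e-15). Gstm5, at chr3:107895821-107898686 on the plus strand, had 4549 and 4497 normalised reads in cKO libraries, against 3327 and 3121 in control libraries. Its replicates were also close, and it was 1.40-fold higher (log2 fold change 0.49 with an SE of 0.04, limma adjusted p = 3.99e-10).

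The remaining mu-class genes were expressed at a far lower level. Gstm2 (chr3:107981702-107986453, minus strand) had 213.1 and 144.8 normalised reads in cKO libraries, against 77 and 66.2 in control libraries. The cKO libraries lay 0.55 apart on the log2 scale, the widest such gap of the 12 genes, yet both were above the control libraries. The fold was 2.50 (log2 fold change 1.29 with an SE of 0.18, limma adjusted p = 1.99e-06), and the 4 Gstm2 values alone gave an SE of 0.30. Gstm2 was the only one of the 12 genes past 2-fold with the authors' scaling, where 5.68% of all listed genes were higher by that much. With relative log expression factors 3 of the 12 genes passed 2-fold (9.52% of all listed genes), and with GC and length trends removed 0 of the 12 did by the limma fold change (3.92% of all listed genes). Gstm4 (chr3:108040408-108044894, minus strand) had 239.2 and 234.9 normalised reads in cKO libraries, against 120 and 128.3 in control libraries. It was 1.91-fold higher with close replicates (log2 fold change 0.93 with an SE of 0.13, limma adjusted p = 2.1e-06). Gstm2-ps1, a processed pseudogene at chr5:116632908-116633564 on the minus strand, had 350.3 and 402.3 normalised reads in cKO libraries, against 233 and 254.5 in control libraries. It was 1.54-fold higher (log2 fold change 0.62 with an SE of 0.11, limma adjusted p = 2.75e-05), but its reads cannot be cleanly assigned. Of its 50-base windows, 46.9% occurred in other transcripts, 35.4% in Gstm1 itself, while 17.3% of the Gstm1 windows occurred in the pseudogene. Gstm2 shared 9.36% of its windows with other transcripts and Gstm5 shared 10.1%, all of these with 4933431E20Rik, whereas Gstm4 shared 0.

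The chromosome 3 cluster spans 149.3 kb and holds 7 mu-class genes in RefSeq. Among 12 protein-coding genes within 200 kb of it, 4 were listed, 2 higher and 2 lower. The higher ones were Ampd2, an AMP deaminase (log2 fold change 0.45), and Amigo1, an adhesion protein (0.69). The lower ones were Gnai3, an inhibitory G protein subunit (-0.49), and Cyb561d1 (-0.39). With the GC trend removed Ampd2 was at 0.02 (limma adjusted p = 1) and Gnai3 at 0.00 (limma adjusted p = 1), and Cyb561d1 was not called with relative log expression factors (limma adjusted p = 0.138). Amigo1 stayed higher in these refits, at 0.43 with the GC trend removed, and the 4 mu-class genes were called higher in each of them. The promoters of the most abundant pair are shown, with the same window and build, Gstm1 from chr3:108017924-108018223 on the minus strand and Gstm5 from chr3:107895604-107895903 on the plus strand. Capitals mark the metal response element core as above and, in Gstm5, also the antioxidant response element core TGACNNNGC, which is bound by Nrf2 with small Maf proteins.
Gstm1: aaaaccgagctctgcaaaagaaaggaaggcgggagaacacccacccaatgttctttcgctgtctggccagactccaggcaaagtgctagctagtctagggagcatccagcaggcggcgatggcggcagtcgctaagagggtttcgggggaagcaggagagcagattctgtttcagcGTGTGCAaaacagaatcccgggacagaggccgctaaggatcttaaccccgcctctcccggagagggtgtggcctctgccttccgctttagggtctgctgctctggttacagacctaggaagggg
Gstm5: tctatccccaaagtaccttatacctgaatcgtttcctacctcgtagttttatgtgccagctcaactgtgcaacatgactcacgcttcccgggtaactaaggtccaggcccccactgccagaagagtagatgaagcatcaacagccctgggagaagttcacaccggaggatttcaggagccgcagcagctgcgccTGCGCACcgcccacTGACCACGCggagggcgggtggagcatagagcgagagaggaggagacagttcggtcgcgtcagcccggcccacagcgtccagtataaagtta
Gstm1 held 1 metal-type match, 74 bases before the start and read on the opposite strand. Gstm5 held 1 metal-type match 56 bases before the start and the antioxidant core 42 bases before it. The antioxidant core occurred in 12.4% of all 32817 promoters and in 1 of the 10 promoters found for the 12 genes. The metal core occurred in 25.7% of all 32817 promoters and in 6 of those 10. Whether either share differs from that of all promoters was not tested. Promoters of Gsta4 and Gstm2-ps1 were not analysed here.

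**Figure D3:**
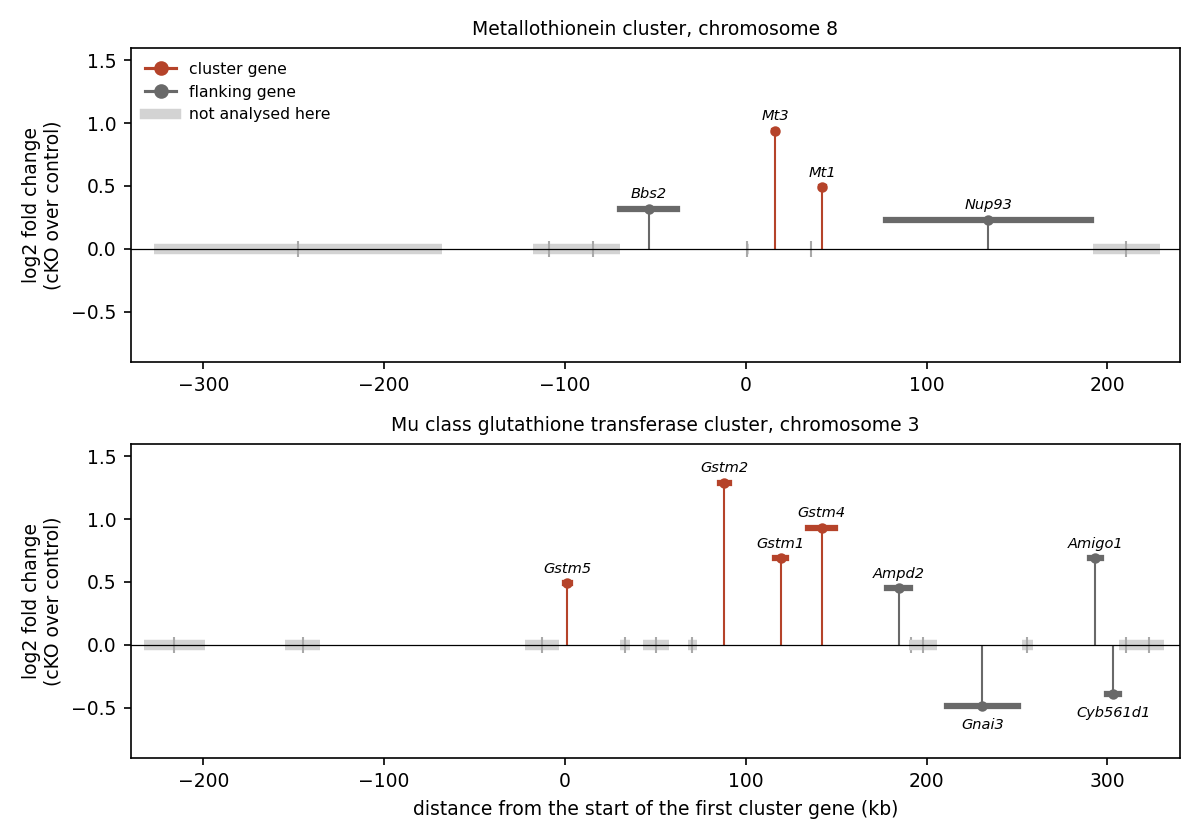
Log2 fold change, cKO over control (vertical axis), against distance in kb from the start of the metallothionein cluster and of the mu-class cluster (horizontal axis) for cluster genes and for the flanking genes named in the text. Thick lines are gene bodies, and grey blocks on the zero line are genes not analysed here. The mu-class genes lie between 0.49 and 1.29, while their listed neighbours lie on both sides of 0, before any GC trend is removed (then Gnai3 is at 0.00 and Ampd2 at 0.02).

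The other transferase classes, each with a single listed gene, were mixed. Gsta4, the alpha-class enzyme that conjugates aldehydes from oxidised lipids, lies at chr9:78182774-78209349 on the plus strand. It had 1993 and 2154 normalised reads in cKO libraries, against 1287 and 1239 in control libraries, and was 1.64-fold higher (log2 fold change 0.71 with an SE of 0.05, limma adjusted p = 4.78e-11). Gstk1, the kappa-class enzyme of mitochondria and peroxisomes, at chr6:42245935-42250447 on the plus strand, had 482.5 and 421.2 normalised reads in cKO libraries, against 308 and 311.5 in control libraries. It was 1.46-fold higher (log2 fold change 0.54 with an SE of 0.10, limma adjusted p = 4.46e-05), but with the GC and length trends removed the value was 0.21 (limma adjusted p = 0.163). Gstz1, the zeta-class enzyme of tyrosine breakdown, at chr12:87147165-87164723 on the plus strand, had 1291 and 1274 normalised reads in cKO libraries, against 954 and 1044 in control libraries. It was 1.28-fold higher (log2 fold change 0.36 with an SE of 0.06, limma adjusted p = 2.08e-05), and 0.48 on the log2 scale with the GC trend removed.

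Gstp1 and Gsto1, which both lie on chromosome 19, were called in opposite directions. Gstp1, the pi-class enzyme at chr19:4035407-4037921 on the minus strand, had 2456 and 2338 normalised reads in cKO libraries, against 1924 and 1769 in control libraries. It was 1.30-fold higher (log2 fold change 0.38 with an SE of 0.05, limma adjusted p = 9.01e-07) although the oligodendrocyte markers were lower in these cKO libraries. With the GC trend removed the Gstp1 value was -0.02 (limma adjusted p = 1). Of its windows, 62.3% were identical to windows of the near-copy Gstp2, so reads from those stretches cannot be told from Gstp2 reads, and its level is uncertain. Gsto1, the omega-class enzyme that reduces dehydroascorbate and mixed disulfides, at chr19:47854970-47864790 on the plus strand, had 988.8 and 1012 normalised reads in cKO libraries, against 1226 and 1252 in control libraries. It was 1.24-fold lower (log2 fold change -0.31 with an SE of 0.06, limma adjusted p = 9.36e-05), with replicates close in both genotypes. Scaled instead by relative log expression factors, the Gsto1 value was -0.12 (limma adjusted p = 0.16).

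Over the 12 genes, the median log2 fold change was 0.58, beside -0.22 over all 6940 listed genes. At least 1.5-fold higher were 6 of the 12 genes, which is 50%, beside 17.4% of all listed genes. That count was 9 with relative log expression factors, beside 28.9% of all listed genes, 3 with the GC trend removed, beside 11.7%, and 1 with GC and length trends removed, beside 10.8%. The summed level of the 12 genes was 100614 and 106400 normalised reads in cKO libraries, against 68642 and 62347 in control libraries. The 12 genes thus took 0.614% and 0.656% of the listed reads in cKO libraries, against 0.402% and 0.365% in control libraries. Mt1, Mt3 and Gstm1 made up most of this sum in every library. Fold changes across the table ran with the GC content of the transcripts (Pearson r = 0.446 across 6934 genes, which are not independent and share the 4 libraries), and the median GC content was 51.6% for the 12 genes, beside 49.4% for all listed genes. The part of GC content in the results was not tested beyond refits that remove its trend. With the GC trend removed 10 of the 12 genes were called higher and 1 lower, beside 2011 higher and 2839 lower of all 6940 listed genes. With both GC and length trends removed 8 of the 12 were called higher and 1 lower, beside 1981 higher and 2895 lower of all 6940. With both GC and length trends removed, the log2 fold change was 0.22 for Gstm1, 0.19 for Gstm5, 0.90 for Gstm2, 0.47 for Gstm4, 0.39 for Gstm2-ps1, 0.46 for Gsta4, 0.46 for Gstz1 and -0.70 for Gsto1.

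**Figure D4:**
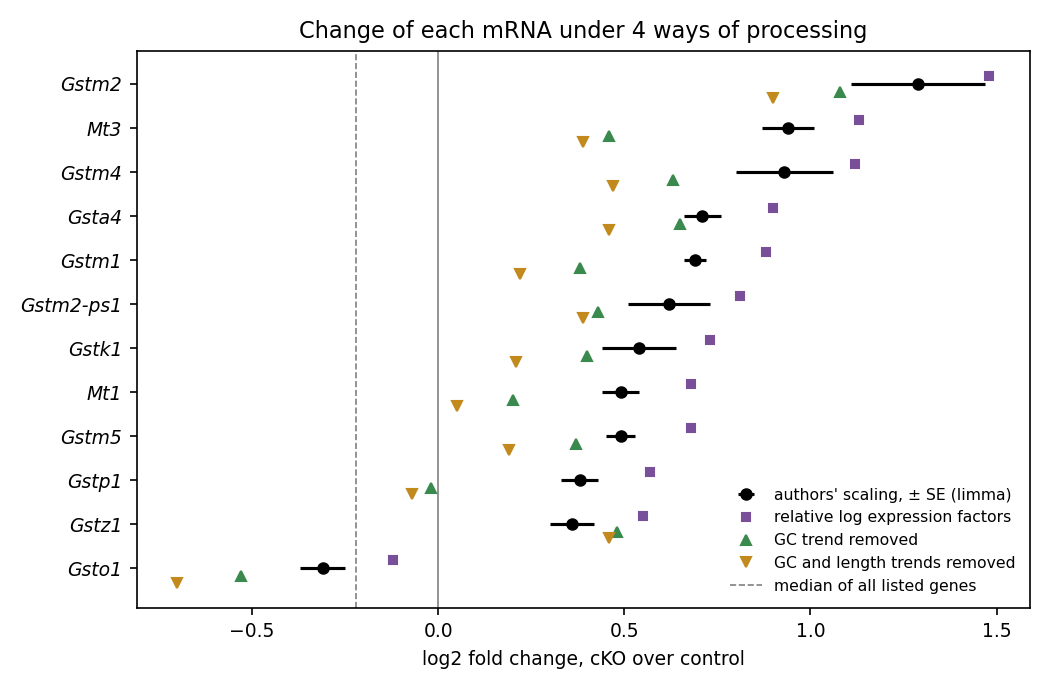
Log2 fold change, cKO over control, of the 12 genes (circles, with the limma SE as bars), beside values with relative log expression factors (squares), without the GC trend (upward triangles) and without GC and length trends (downward triangles). The dashed line is the median of all listed genes. Gstp1 is at -0.02 without the GC trend, while Mt3, Gsta4 and the mu-class genes stay above 0 in all 4 versions.

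Levels were compared between genes per kilobase of the deposited gene length. In cKO cells Mt3 had the highest level, with 28289 ± 4117 normalised reads per kilobase, followed by Mt1 with 22696 ± 359.8 and Gstm1 with 22100 ± 465.8 (SD, n = 2 each). Mt1 and Gstm1 were close to each other in cKO cells, apart by about as much as their replicate spread. In control cells Mt1 came first, with 16262 ± 2176 normalised reads per kilobase, then Mt3 with 14764 ± 2179 and Gstm1 with 13695 ± 525.5 (SD, n = 2 each), and none of these neighbours differed beyond its spread. The order depended on the length used. Per kilobase of the longest GENCODE transcript, a length tried after the values were seen, Mt3 came first in both genotypes, with 56260 ± 8188 in cKO cells and 29363 ± 4334 in control cells, before Mt1 with 26063 ± 413 in cKO cells and 18675 ± 2499 in control cells (SD, n = 2 each). Among 6940 listed genes by reads per kilobase of deposited length, Mt3 ranked 11 in cKO cells and 28 in control cells. Mt1 ranked 16 in cKO cells and 24 in control cells, and Gstm1 ranked 17 in cKO cells and 34 in control cells. Next came Gstm5, with 3539 normalised reads per kilobase in cKO cells and 2523 in control cells, and Gstp1, with 3166 in cKO cells and 2440 in control cells. Gsta4 had 1638 normalised reads per kilobase in cKO cells and 997.7 in control cells. Gsto1 changed its place, since with 508.4 normalised reads per kilobase in cKO cells and 629.6 in control cells it lay below Gstm2-ps1 in cKO cells (572.7) and above it in control cells (371.0). Gstk1 had 307.6 normalised reads per kilobase in cKO cells and 210.9 in control cells, Gstz1 had 252.1 in cKO cells and 196.3 in control cells, and Gstm4 had 138.9 in cKO cells and 72.7 in control cells. The lowest was Gstm2, with 106.6 normalised reads per kilobase in cKO cells and 42.6 in control cells.

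Astrocyte genes moved beside the 3 most abundant genes, and ratios to Gfap, the astrocyte filament gene, and to further astrocyte genes were looked at after the values were seen. Gfap had 557247 and 553584 normalised reads in cKO libraries, against 351481 and 352111 in control libraries, and was 1.58-fold higher (log2 fold change 0.66, limma adjusted p = 7.22e-17). With the GC trend removed the Gfap value was 0.27 on the log2 scale, and the median of the listed astrocyte markers was 0.40, against 0.63 with it. Gstm1 reads equalled 5.93% and 5.79% of Gfap reads in cKO libraries, against 5.58% and 5.88% in control libraries, and the genotypes overlapped. Mt3 reads equalled 4.85% and 6.01% of Gfap reads in cKO libraries, against 4.95% and 4.0% in control libraries, which also overlapped. Mt1 reads equalled 5.02% and 5.17% of Gfap reads in cKO libraries, against 6.31% and 5.21% in control libraries, so here the cKO libraries lay below. Relative to Gfap, none of the 3 genes was higher in both cKO libraries than in both control libraries, but this depended on the astrocyte gene chosen. Gstm1 reads equalled 92.7% and 90.8% of the reads of Aldoc, an aldolase gene, in cKO libraries, against 85.7% and 90.1% in control libraries, and 4.28% and 4.19% of the summed astrocyte markers in cKO libraries, against 3.84% and 4.05% in control libraries. Mt3 reads equalled 3.51% and 4.35% of that sum in cKO libraries, against 3.40% and 2.75% in control libraries. In these 3 ratios both cKO libraries lay above both control libraries, in part by narrow margins. For any such ratio an exact permutation test of 2 against 2 libraries cannot give a two-sided p below 0.333. Whether any ratio to an astrocyte gene differed between genotypes was thus not tested. Mt3 reads equalled 75.9% and 94.1% of Aldoc reads in cKO libraries, against 75.9% and 61.3% in control libraries, so the lower cKO library was level with the higher control library. Mt3 to Clu overlapped, at 85.8% and 106% in cKO libraries against 94.1% and 78.1% in control libraries. Mt1 was not higher by any of these measures. Its reads equalled 78.5% and 80.9% of Aldoc reads in cKO libraries, against 96.9% and 79.8% in control libraries, and 3.62% and 3.74% of the summed markers in cKO libraries, against 4.34% and 3.58% in control libraries, both overlapping. Mt1 to Clu lay lower, at 88.7% and 91.4% in cKO libraries against 120% and 102% in control libraries. Relative to Clu, a secreted chaperone gene, Gstm1 lay lower, at 105% and 103% in cKO libraries against 106% and 115% in control libraries. Without Gfap, the summed astrocyte markers were 214312 and 210937 in cKO libraries, against 159872 and 160092 in control libraries. The astrocyte list was not uniform, since S100b, a calcium-binding protein, fell 3.09-fold (log2 fold change -1.63, limma adjusted p = 1.76e-16) while Gjb6, a gap junction gene, rose 1.86-fold (limma adjusted p = 0.00018). Their part in the result was not tested.

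Markers of further cell types were listed as well. All 8 listed of 10 pericyte and fibroblast markers were higher in cKO cells, with a median of 1.68 on the log2 scale, and their summed levels were 12234 and 11796 in cKO libraries, against 3962 and 3778 in control libraries. All 4 listed of 10 microglia markers were higher (median 0.73, but 3 called and a median of 0.33 with the GC trend removed), with sums of 2376 and 2551 in cKO libraries, against 1586 and 1547 in control libraries. Of 9 listed neuron markers, 7 were higher and 2 lower, with sums of 17665 and 17482 in cKO libraries, against 18585 and 18901 in control libraries. Endothelial markers were split, 2 higher and 2 lower of 4 listed, and precursor markers too, 2 higher and 3 lower of 5 listed. The part of these cells in the results was not tested.

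Genes that make, recycle or use glutathione were mostly higher. Of 19 genes for glutathione synthesis, turnover and export, 11 were listed, 8 higher and 3 lower (median log2 fold change 0.33). Ggt5, which cleaves the gamma-glutamyl bond of glutathione conjugates, had 213.9 and 127.0 normalised reads in cKO libraries, against 38 and 49.9 in control libraries (log2 fold change 1.90, limma adjusted p = 9.38e-08). Chac1, which breaks down glutathione in the cytosol, had a log2 fold change of 0.96 (limma adjusted p = 0.00077), but 0.52 with the GC trend removed (limma adjusted p = 0.134). Oplah, the oxoprolinase of the same cycle, rose by 0.90 (limma adjusted p = 1.18e-11). Of 9 other transferase-type enzymes, 3 were listed. These were the prostaglandin E synthase Ptges (log2 fold change 0.95), the microsomal transferase Mgst1 (0.54) and the mitochondrial outer membrane protein Gdap1 (-0.52), whose value was 0.02 with the GC trend removed.

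All 21 listed of 28 peroxide and thiol enzymes were higher in cKO cells, with a median of 0.50 on the log2 scale, but with the GC trend removed 14 were higher and 1 was lower. Sod3, the secreted superoxide dismutase, had 681.0 and 729.8 normalised reads in cKO libraries, against 273 and 300.3 in control libraries (log2 fold change 1.30, limma adjusted p = 7.45e-12). The endoplasmic reticulum peroxidase Gpx7 rose by 0.83 and the plasma glutathione peroxidase Gpx3 by 0.77 on the log2 scale. Among 24 regulators and targets of Nrf2, the transcription factor of the antioxidant response, 22 were listed, 18 higher and 4 lower (median 0.32). The carbonyl reductase Cbr3 (log2 fold change 1.44), the growth inhibitor Osgin1 (1.12) and the ferritin heavy chain Fth1 (0.81) had the greatest changes. Nfe2l2, which encodes Nrf2 and was picked after its values were seen, had 3286 normalised reads in each cKO library, against 2486 and 2585 in control libraries (log2 fold change 0.37, limma adjusted p = 7.49e-08).

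Zinc and copper handling genes did not follow the metallothioneins. Of 32 such genes 18 were listed, 7 higher and 11 lower, and their median was -0.22 on the log2 scale, the same as that of all listed genes. The zinc importer gene Slc39a12 was 2.14-fold higher (log2 fold change 1.10) and the copper ferroxidase gene Cp was 1.51-fold higher (0.60), whereas the copper-exporting ATPase gene Atp7a was 1.68-fold lower (-0.75). Mtf1 and the zinc exporter gene Slc30a1, both picked after their values were seen, are known for regulating and for sharing the zinc response of Mt1. Mtf1 had 799.4 and 741.6 normalised reads in cKO libraries, against 981 and 983.5 in control libraries (log2 fold change -0.35, limma adjusted p = 8.49e-05, but 0.0692 with relative log expression factors). Slc30a1 had 970.8 and 919.6 normalised reads in cKO libraries, against 1262 and 1333 in control libraries (log2 fold change -0.46, limma adjusted p = 7.16e-07). With the authors' scaling both were lower in the libraries where Mt1 and Mt3 were higher. With GC and length trends removed, Mt1 was at 0.05 on the log2 scale (limma adjusted p = 0.892). Any part of zinc or of Mtf1 in the metallothionein levels was not tested.

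**Figure D5:**
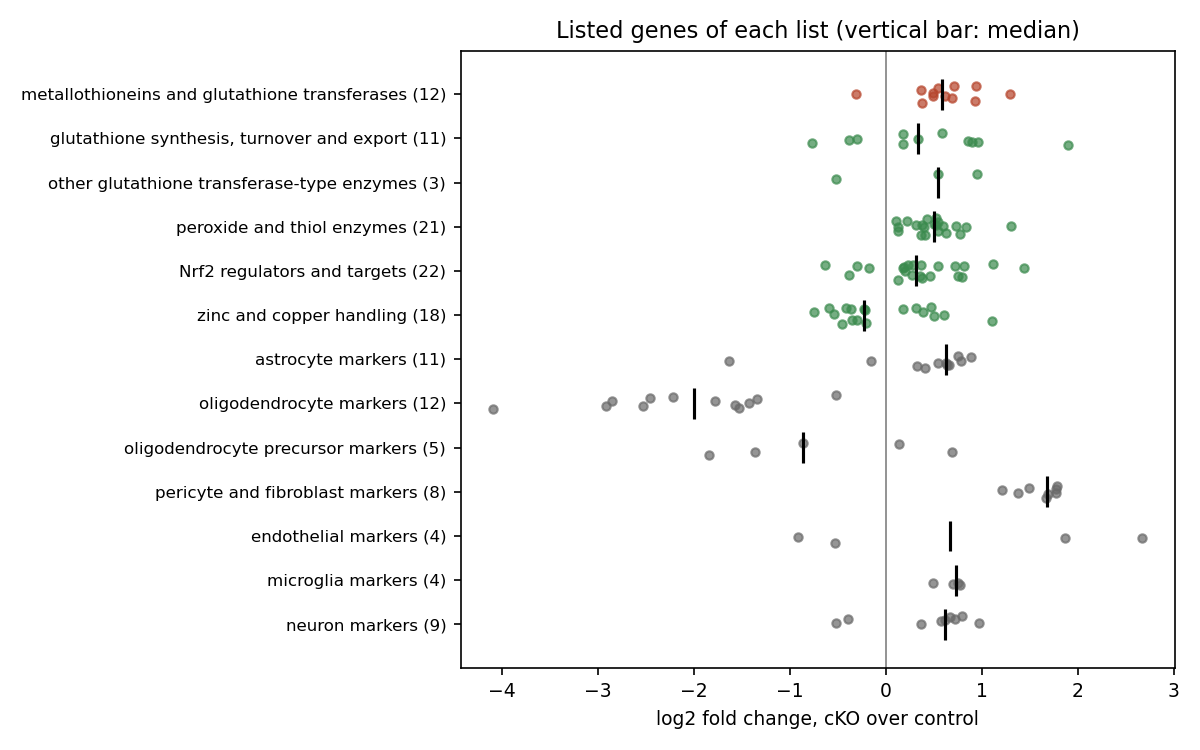
Log2 fold change, cKO over control, of the listed genes of each pathway and marker list, with one point per gene and the median marked, beside the 12 genes. The oligodendrocyte markers lie below 0 throughout, the peroxide and thiol enzymes above it (1 is called lower once the GC trend is removed), and the zinc and copper genes on both sides.

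The genes whose pattern over the 4 libraries was most like that of Mt3 and of Gstm1 were sought among 6442 genes with a mean of at least 100 normalised reads, by the Euclidean distance of their centred log2 values. For Mt3 the nearest were Mocos (distance 0.075), P2ry2 (0.128), Hpcal4 (0.136), Gm17455 (0.147) and Arhgef6 (0.152). For Gstm1 they were Tap2 (0.018), Rab29 (0.022), Aldh7a1 (0.022), Emp1 (0.030) and Pcx (0.030). The nearest genes lay farther from Mt3 than from Gstm1. Those named for Mt3 were near the minimum of 100, from 62.1 (P2ry2, a control library) to 182.7 normalised reads (Hpcal4, a cKO library). Mt3 itself ran from 14096 in a control library to 33259 in a cKO library. Those named for Gstm1 ran from 327.0 (Rab29, a control library) to 8890.8 (Pcx, a cKO library). The part of low read counts in the Mt3 distances was not tested. Each distance describes 4 libraries and no more.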

How the data were processed

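Total RNA of 4 libraries, 2 per genotype, was sequenced. The deposited table holds the authors' normalised signal per gene with a log2 fold change, p-value and adjusted p-value; per the submitters' processing notes DESeq2 and GRCm38 (mm10) were used. The aligner, counter, annotation and strand setting are not given in the sources used here. The authors' signal is gene counts divided by size factors: one read is worth 0.8165 and 1.1866 in cKO libraries and 1.0 and 1.0181 in control libraries, and 100% of 6940 values per library came out whole within 0.01 read. The listed genes are those with an authors' adjusted p-value of at most 0.0499, 40% of the 17347 genes they adjusted over, a number read back from their p-values. Columns of other samples numbered 0.

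The main test was limma 3.58.1 (R 4.3.3) on log2(value + 1) with a variance trend, fitted to all listed genes and 4 libraries, genotype only, after a filter of value 1 in 2 libraries that every listed gene passed. P-values were adjusted by Benjamini-Hochberg over 17347 genes, and an adjusted p under 0.05 was called. A log2 fold change on the log2(value + 1) scale understates low genes. Alternatives were edgeR 4.0.16 quasi-likelihood and DESeq2 1.42.0 on the recovered reads, relative log expression and TMM factors, other pseudocounts and filters, GC and length trends removed, a replicate block, and each library left out. GC content came from the longest GENCODE M21 transcript of 6934 genes (99.9%), and the length in the length trend was the deposited gene length. Code was tested on simulated data.

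The 12 genes and the gene lists were chosen with earlier results of these data known. Named genes were all 12, the 3 listed genes of largest absolute log2 fold change in a pathway list, up to 3 in a marker list, the 5 nearest genes in pattern, and listed cluster neighbours. Promoters are from RefSeq (GRCm38.p6), with 10 of the 12 genes matched. A result on a further flanking gene is not reported here.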

Additional observations from a re-analysis of the deposited data

How the results depend on the processing

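Each result was recomputed under 18 alternatives. The authors had called every listed gene on the same libraries, and the main fit called 100% of the 6940. A kept call was thus largely fixed in advance. Of 216 values for the 12 genes, 210 kept direction and side of the threshold, 3 lost the call (Gsto1 with relative log expression factors, Gstk1 and Mt1 with GC and length trends removed) and 3 reversed. Of 1025 values for 57 other named genes, 1005 kept both, 15 lost the call and 5 reversed. All reversals came from removing GC trends: Gstp1 was -0.019 without the GC trend, -0.066 without GC and length trends and -0.019 with the replicate block and no GC trend; Gdap1 was 0.018, 0.047 and 0.018 in the same order, and Gnai3 0.0028 without the GC trend and 0.0028 with the block as well. Genes higher in cKO cells numbered 3244, but 2011 without the GC trend, 1981 without GC and length trends and 2029 with the replicate block and no GC trend; the cause was not tested. The median log2 fold change of the 12 genes was 0.58, but 0.77 with relative log expression factors, 0.65 with TMM, 0.42 without the GC trend (with or without the replicate block), 0.30 without GC and length trends, and 0.58 to 0.62 with single libraries left out, where the remaining library of a genotype is assumed to vary like the other genotype. Relative log expression factors raised the median of all listed genes by 0.191 (removing the GC trend, by 0.154) and left 0 of the 12 genes called lower by limma, 0 also at an unadjusted p under 0.05 (Gsto1 unadjusted p = 0.0586). The replicate block gave 3242 higher and 3696 lower genes, with 11 of the 12 genes higher and 1 lower; the labels' numbers did not pair the samples (r = 0.0133). With 2 libraries per genotype, leaving one out removes any check of spread within that genotype. Gstm2, the shallowest of the 12 genes, rested on 261 and 122 reads in cKO libraries and 77 and 65 in control libraries.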
